A study of Mus musculus with 57 samples.

Results

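Genes of mitophagy, the removal of damaged or surplus mitochondria by autophagy, were followed through the adipose tissues of mice carrying the mitofusin-2 mutation Mfn2-R707W. The members were Pink1, Bnip3, Bnip3l, Fundc1, Sqstm1, Optn, Phb2, Usp30 and Fbxl4, taken by gene symbol as a list of receptors, adaptors and regulators, a rule that uses no measured value, although the list was drawn up with earlier results of these data known. All 9 members were found in each of the 3 count tables, among 52853 genes. Male C57BL/6J mice were either wild type (WT) or homozygous knock-in (KI) for Mfn2-R707W, and total RNA was sequenced from inguinal white adipose tissue (WAT) and brown adipose tissue (BAT). Mice of both genotypes received, from 5 weeks of age and for 6 months, either a high fat diet (HFD) with 45% of its energy as fat or chow. Inguinal WAT was profiled on HFD in 8 KI and 8 WT mice and on chow in 6 KI and 7 WT mice, and BAT on HFD in 6 KI and 6 WT mice. The knock-in line came from a single founder made by CRISPR-Cas9, every cell of the body carried the change, and the change is a missense one, so the RNA level of Mfn2 does not check the genotype labels.

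PINK1 is a kinase that is imported into healthy mitochondria and cleaved, and that builds up on the surface of depolarised ones, where it marks ubiquitin with phosphate. The marked ubiquitin is read by adaptors, among them p62 (Sqstm1) and optineurin (Optn), which bind both the tagged mitochondrion and the growing autophagosome, while the deubiquitinase USP30 on the outer membrane removes ubiquitin and opposes the process. A separate route needs no ubiquitin and uses receptors that sit in the outer mitochondrial membrane and bind autophagosome proteins directly: BNIP3, NIX (Bnip3l) and FUNDC1. Prohibitin 2 (Phb2) is a mitophagy receptor of the inner membrane. FBXL4 is part of a ubiquitin ligase that lowers the amount of BNIP3 and NIX. MFN2 itself joins outer membranes in mitochondrial fusion and is a substrate of the PINK1 pathway. The values below are RNA levels, and neither the proteins nor the rate of mitophagy was measured in these tables.

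Each mouse was represented by 8042591 to 11720458 gene counts in BAT and chow inguinal WAT, and by 17572752 to 25680411 in inguinal WAT on HFD, where 2 technical libraries had been made per mouse. Every member had at least 74 counts in every mouse. Adipocyte markers summed to 20247 to 41485 CPM (counts scaled to a common library size) in every group, and brown adipocyte markers to 9334 to 16133 CPM in BAT against 11.3 to 492.8 CPM in inguinal WAT. Within inguinal WAT the brown adipocyte sum moved with genotype, at 11.3 to 22.7 CPM in WT and 20.1 to 46.0 CPM in KI on HFD, and at 18.2 to 62.6 CPM in WT and 78.4 to 492.8 CPM in KI on chow. The rise lay mainly in Cidea, with WT and KI means of 6.92 and 20.15 CPM on HFD and 25.7 and 209.2 CPM on chow. Ucp1, Elovl3 and Dio2 had lower KI means on HFD, as had Ppargc1a and Dio2 on chow, and the other markers had higher ones. Several of these levels were very low. On HFD the WT and KI means were 0.62 and 0.51 CPM for Ucp1, 0.93 and 0.15 for Elovl3 and 0.33 and 0.036 for Dio2. On chow those of Dio2 were 0.57 and 0.24 CPM. Only 3 of the 6 brown adipocyte markers passed the filter on low counts in each inguinal comparison of genotype. In all 3 tables each of the 8 macrophage markers had a negative KI difference, and the summed fibroblast and progenitor markers had lower medians in KI mice (2344 against 3340 CPM in inguinal WAT on HFD, 2279 against 4072 on chow and 362 against 644 in BAT). Some mice carried other tissue: the chow KI mouse 4 had 62173 CPM of skeletal muscle markers, where another mouse of its group had 38.9, the chow WT mouse 4 had the most macrophage markers of its group (2212 CPM), and the KI mouse 2 on HFD had 594.7 CPM of lymphocyte markers. Before library scaling, BAT WT mice 1 and 2 had 1914 and 2601 CPM of skeletal muscle markers. Lymphocyte markers summed to 477.4 and 252.4 CPM in HFD WT mice 2 and 6 and to 415.7 CPM in chow KI mouse 3. The BAT KI mouse 6, described with Sqstm1, also had the most skeletal muscle markers of its group. The part of these mice and markers in the results was not tested beyond the values given below. Where the mice high in muscle or lymphocyte markers were left out together, the groups also became smaller. Whether a call was lost through the mice removed or through the smaller groups cannot be told apart.

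Only Sqstm1 among the 9 members differed between genotypes at the threshold used here, an adjusted p below 0.01 in edgeR's quasi-likelihood test. In inguinal WAT on HFD 1 of 9 members was called, and it was higher in KI mice, beside 11.5% of all 16471 genes tested (6.21% higher and 5.24% lower). On chow 1 of 9 was called, again higher, beside 3.23% of 14629 genes (1.96% higher and 1.27% lower). In BAT 0 of 9 were called, with 4 at an unadjusted p below 0.05 and Sqstm1 called by DESeq2, beside 1.83% of 13267 genes (1.36% higher and 0.475% lower). The 9 members had a median log2 fold change (KI against WT) of 0.06 for inguinal HFD samples, 0.04 for chow and 0.13 for BAT, where the medians over all genes tested were 0.01, -0.01 and -0.01. The KI and WT mice did not overlap at all for 0, 1 and 0 members in the 3 comparisons, where 4.53%, 4.22% and 3.69% of all genes tested did not overlap. On HFD a call for 1 of 9 members is a share close to that of all genes, and on chow it rests on the same gene, so nothing was read from these counts about the members as a group.

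**Figure D1:**
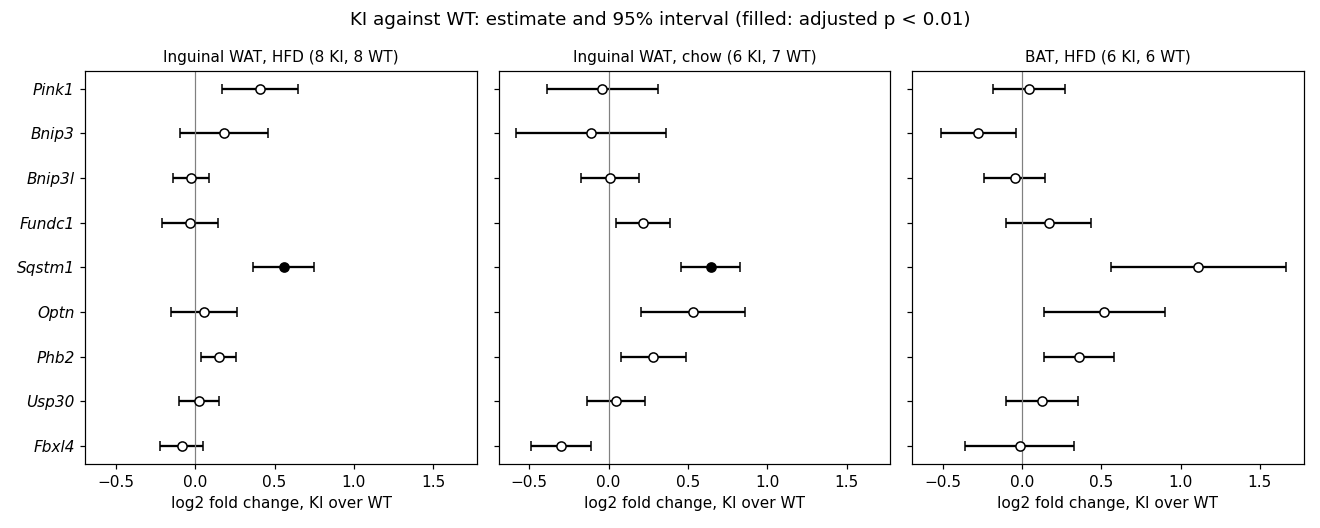
Log2 fold change of KI against WT (horizontal axis) for the 9 members in the 3 comparisons, with the 95% interval as a bar and filled points where the adjusted p was below 0.01 in edgeR's quasi-likelihood test. Sqstm1 lies to the right of 0 in all 3, at 0.56, 0.64 and 1.11, and its interval in BAT is the widest of its 3.

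Sqstm1 (ENSMUSG00000015837, GRCm38 chr11:50199366-50210827, minus strand) encodes p62, the adaptor that carries ubiquitinated cargo to the autophagosome. Its promoter is shown because it is the member whose RNA differed between genotypes, and that of Bnip3 because it holds more of the searched motifs than any other member's. Both windows run from 250 to 21 bases before the RefSeq transcript start in GRCm38.p6, on the minus strand, and are 230 bases long. Capitals mark matches to the GC box GGGCGG and the E-box CACGTG on either strand.
Sqstm1, chr11:50210841-50211070: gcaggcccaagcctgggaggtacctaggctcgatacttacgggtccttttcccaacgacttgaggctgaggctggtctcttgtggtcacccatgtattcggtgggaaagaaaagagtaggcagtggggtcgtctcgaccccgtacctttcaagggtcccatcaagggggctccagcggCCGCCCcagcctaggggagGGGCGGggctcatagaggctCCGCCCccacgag
Bnip3, chr7:138909527-138909756: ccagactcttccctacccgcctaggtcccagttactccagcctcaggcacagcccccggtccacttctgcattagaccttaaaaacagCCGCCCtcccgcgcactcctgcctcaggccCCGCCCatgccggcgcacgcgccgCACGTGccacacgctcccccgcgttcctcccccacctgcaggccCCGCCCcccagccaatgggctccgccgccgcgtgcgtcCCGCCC

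The Sqstm1 window held 3 GC boxes, beginning 72, 53 and 33 bases before the start, and the Bnip3 window held 4 GC boxes and 1 E-box, the latter 108 bases before the start. A GC box was present in 29.8% of 32817 such windows and an E-box in 5.34%. Neither the amino acid response element TGATGNAA, found in 3.23% of windows, nor the antioxidant response element TGACNNNGC, found in 9.18%, was matched in any of the 8 members with a window. The same window of Trib3, a gene induced in the integrated stress response, held neither element as well. Sites outside the windows were not searched. Optn held 1 GC box and Phb2 and Fbxl4 held 2 each, while Pink1, Fundc1 and Usp30 held none of the 4 motifs. No pair of matches overlapped, and matches are of letters only and were not tested as binding sites.

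In inguinal WAT on HFD, Sqstm1 ranged from 273.9 through a median of 319.7 to 386.2 CPM in 8 WT mice. In the 8 KI mice it ranged from 337.1 through 496.3 to 545.5 CPM. All KI mice but 1 lay above every WT mouse, and that one, KI mouse 2, lay among the WT mice. Lymphocyte markers were high in this mouse and also in WT mice 2 and 6. The log2 fold change was 0.56 (SE 0.0976, 95% interval 0.365 to 0.748), a 1.47-fold higher level (edgeR quasi-likelihood test, adjusted p = 4.45e-04). On chow the 7 WT mice ranged from 360.4 through 379.6 to 474.2 CPM and the 6 KI mice from 580.4 through 606.3 to 705.5 CPM. The groups did not overlap, and the chow KI mouse 4 with its muscle markers had 607.9 CPM, within the range of the other KI mice. The chow KI mouse 3, high in lymphocyte markers, had 604.7 CPM. The fold was 1.56 (log2 0.64, SE 0.0954, edgeR adjusted p = 8.89e-04). Sqstm1 stayed called when any single mouse was left out of either inguinal comparison, with a log2 fold change of 0.52 to 0.61 on HFD and 0.61 to 0.69 on chow. It was no longer called when all 6 groups shared 1 fit (0.55, edgeR adjusted p = 0.0162 on HFD, and 0.65, adjusted p = 0.011 on chow).

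In BAT the 6 WT mice kept within 397.4 to 484.2 CPM of Sqstm1, with a median of 419.6. KI mice 1 to 6 had 734.6, 1115, 775.2, 1196, 1639 and 303.5 CPM. Thus 5 KI mice lay above all WT mice, and KI mouse 6 lay below all of them, so that the SD among KI mice was 459.8 CPM against 33.9 among WT mice. The log2 fold change was 1.11 (SE 0.282, 95% interval 0.558 to 1.66), a 2.16-fold higher level that was not called (edgeR adjusted p = 0.0299). Without KI mouse 6 the log2 fold change was 1.31 (SE 0.181) and Sqstm1 was called (edgeR adjusted p = 3.66e-04). KI mouse 6 was singled out by its own Sqstm1 level, so leaving it out does not test the difference anew. With all 6 KI mice DESeq2 also called Sqstm1 (1.13, adjusted p = 9.46e-04), as did the fit of all 6 groups in edgeR (1.15, adjusted p = 4.78e-05). That edgeR fit shares 1 estimate of spread per gene among the groups, and its SE was 0.189. Its p therefore does not measure the spread among the BAT KI mice alone. Sqstm1 was not called with no filter on low counts (1.12, edgeR adjusted p = 0.0963) or without the mice high in muscle or lymphocyte markers. Of the 12 fits that left out 1 mouse, only that without KI mouse 6 called it, and the highest edgeR adjusted p was 0.0704. Whether a bulk RNA level moved through the RNA per cell or through the number of cells of a type cannot be told apart in any of these tissues.

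KI mouse 6 differed from the other BAT KI mice in several values. Its Fundc1 (21.03 CPM) and Fbxl4 (11.88 CPM) also lay below every WT mouse, its Phb2 (640.2 CPM) lay above every WT mouse, and its other 5 members were within the WT range. Mitochondrially encoded genes took 12.8% of its counts, above the 10.6 to 11.8% of the other KI mice and below the 14.6 to 18.4% of the WT mice. Its skeletal muscle markers summed to 612.4 CPM before library scaling, against 2.76 to 140.2 CPM in the other KI mice and 2.98 to 2601 CPM in the WT mice. The part of these values in its Sqstm1 level was not tested.

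The 3 genes whose levels varied most like those of Sqstm1, over 41 mice after the mean of each group was taken away and among 13033 genes, were Trib3, Nars and Lonrf1. Trib3 encodes a pseudokinase induced in the integrated stress response, Nars the cytosolic asparaginyl-tRNA synthetase and Lonrf1 a RING finger protein. For Trib3 Pearson's r was 0.81 and Spearman's rho 0.61, and r was 0.56 without the 2 mice farthest from the median. For Nars the values were 0.80, 0.60 and 0.59, and for Lonrf1 0.80, 0.56 and 0.52. The likeness was strongest in BAT, with r from 0.90 to 0.96 over 12 mice, against 0.43 to 0.57 over 16 mice in inguinal WAT on HFD and 0.42 to 0.75 over 13 mice on chow, and the points share their libraries. In BAT KI mouse 6 had 29.22 CPM of Trib3, inside the WT range of 12.88 to 31.4 CPM, where the other KI mice had 169.1 to 406.4 CPM. Its Nars was 118.5 CPM, just above the WT range of 100.7 to 113 CPM and below the 149.2 to 217.1 CPM of the other KI mice. Trib3 itself was higher in KI mice in all 3 comparisons, with log2 fold changes of 3.18, 3.65 and 3.54 (edgeR adjusted p = 4.72e-08, 7.67e-06 and 0.00245). Nars was also higher in each, by 0.47, 0.41 and 0.66 (edgeR adjusted p = 1.08e-04, 0.00224 and 0.00524). Lonrf1 had 0.42, 0.31 and -0.19 and was not called in any (edgeR adjusted p = 0.0231, 0.187 and 0.700).

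**Figure D2:**
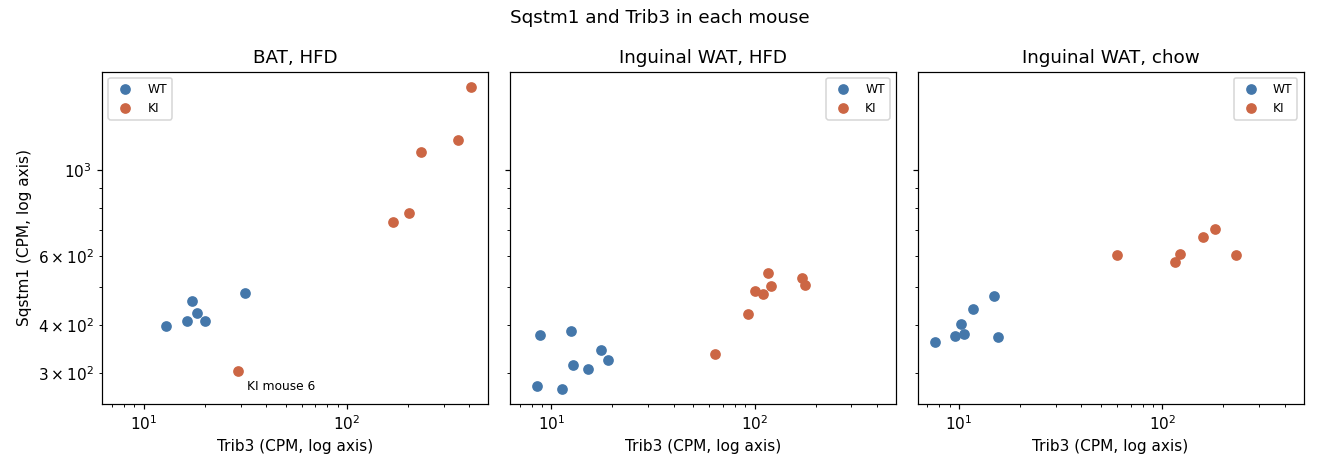
Sqstm1 (vertical axis, CPM, log scale) against Trib3 (horizontal axis, CPM, log scale) in 41 mice, by tissue, diet and genotype. The BAT KI mouse 6, at 303.5 CPM of Sqstm1 and 29.22 CPM of Trib3, lies near the WT mice, below them in Sqstm1, and away from the other 5 KI mice.

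Optn (ENSMUSG00000026672, chr2:5020642-5064051, minus strand) encodes optineurin, the other ubiquitin-reading adaptor. On chow it ranged from 59.86 through 126.9 to 144.5 CPM in WT mice and from 126.8 through 182.9 to 200.7 CPM in KI mice. All but 1 of the 6 KI mice, KI mouse 3, lay above all WT mice, and the lowest WT value belonged to mouse 4. The log2 fold change was 0.53 (SE 0.167), which did not pass the threshold (edgeR adjusted p = 0.0639). Without the WT mouse 4 it was 0.43 (edgeR adjusted p = 0.0244). Leaving out all mice high in muscle or lymphocyte markers removed that mouse and KI mice 1, 3 and 4. The log2 fold change was then 0.53 and was called (edgeR adjusted p = 0.00385). In BAT the WT mice ranged from 97.18 through 159.6 to 186.2 CPM and the KI mice from 126.3 through 241.7 to 296.3 CPM, with 4 of 6 KI mice above all WT mice (log2 0.52, SE 0.195, edgeR adjusted p = 0.117). In inguinal WAT on HFD the means were 167.7 ± 31.2 CPM for WT (SD, n = 8) and 173.6 ± 19.7 CPM for KI (SD, n = 8), the ranges overlapped, and the interval of the log2 difference was -0.15 to 0.26.

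Pink1 (ENSMUSG00000028756, chr4:138313409-138326307, minus strand) encodes the kinase at the head of the ubiquitin route. In inguinal WAT on HFD it ranged from 192.3 through 287.4 to 329.7 CPM in WT mice and from 275.7 through 374.4 to 421.3 CPM in KI mice. Most KI mice, 6 of 8, lay above all WT mice. The log2 fold change of 0.41 (SE 0.122, 95% interval 0.167 to 0.645) passed an adjusted p of 0.05 but not 0.01 (edgeR adjusted p = 0.0233). On chow the difference was -0.04 (SE 0.18) and in BAT 0.04 (SE 0.116), with edgeR adjusted p = 0.921 and 0.863, and the groups overlapped in both.

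Usp30 (ENSMUSG00000029592, chr5:114065461-114124720, plus strand), which encodes the deubiquitinase that opposes PINK1, was among the members whose group means differed least. Its group means spanned 29.2 to 32.8 CPM. The log2 differences were 0.03, 0.04 and 0.13 in inguinal WAT on HFD or chow and in BAT (edgeR adjusted p = 0.834, 0.815 and 0.527), with 95% intervals of -0.10 to 0.15, -0.14 to 0.23 and -0.10 to 0.35.

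Phb2 (ENSMUSG00000004264, chr6:124712336-124716950, plus strand) encodes prohibitin 2, the inner membrane receptor. Its log2 difference was positive in all 3 comparisons and was not called in any, at 0.15 for inguinal HFD samples (SE 0.0554), 0.28 for chow (SE 0.104) and 0.36 for BAT (SE 0.113) (edgeR adjusted p = 0.0687, 0.106 and 0.0618). In BAT the WT mice ranged from 384.8 through 409.2 to 476.2 CPM and the KI mice from 450.2 through 550.4 to 646.3 CPM, so the groups overlapped only at their edges. The fit of all 6 groups called Phb2 in BAT. On chow its difference was 0.07 (edgeR adjusted p = 0.684) without the mice high in muscle or lymphocyte markers.

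Bnip3 (ENSMUSG00000078566, chr7:138890836-138909519, minus strand), the receptor induced by hypoxia, had the highest coefficient of variation of the 9 members in each inguinal group, from 14.8% in KI mice on HFD to 35.3% in KI mice on chow, and 11.6% and 13.1% in BAT of KI and WT mice. Its log2 differences were 0.18 for inguinal HFD samples (SE 0.141), -0.11 for chow (SE 0.241) and -0.28 for BAT (SE 0.12) (edgeR adjusted p = 0.409, 0.828 and 0.167). In BAT the WT mice ranged from 227.7 through 310.2 to 339.6 CPM and the KI mice from 217.2 through 255 to 292.7 CPM, and 1 WT mouse, mouse 5, gave the low end of the WT range. The related receptor gene Bnip3l (ENSMUSG00000022051, chr14:66985239-67008877, minus strand) had differences of -0.03, 0.01 and -0.05 (edgeR adjusted p = 0.816, 0.964 and 0.817), and its group means lay between 131.6 and 144 CPM. Fundc1 (ENSMUSG00000025040, chrX:17556564-17572325, minus strand), the third outer membrane receptor gene, had -0.03, 0.21 and 0.17 (edgeR adjusted p = 0.840, 0.139 and 0.482).

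Fbxl4 (ENSMUSG00000040410, chr4:22357543-22434091, plus strand), whose product restrains BNIP3 and NIX, had its largest difference on chow. There the WT mice ranged from 32.57 through 40.41 to 42.36 CPM and the KI mice from 26.71 through 31.97 to 37.67 CPM, with overlap. The log2 fold change was -0.30 (SE 0.0955), which was not called (edgeR adjusted p = 0.0659). On HFD it was -0.09 in inguinal WAT and -0.02 in BAT (edgeR adjusted p = 0.422 and 0.971). Mfn2, the edited gene (ENSMUSG00000029020, chr4:147873599-147904704, minus strand), had 0.34, 0.36 and 0.29 in the 3 comparisons and was not called (edgeR adjusted p = 0.0114, 0.0840 and 0.113).

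**Figure D3:**
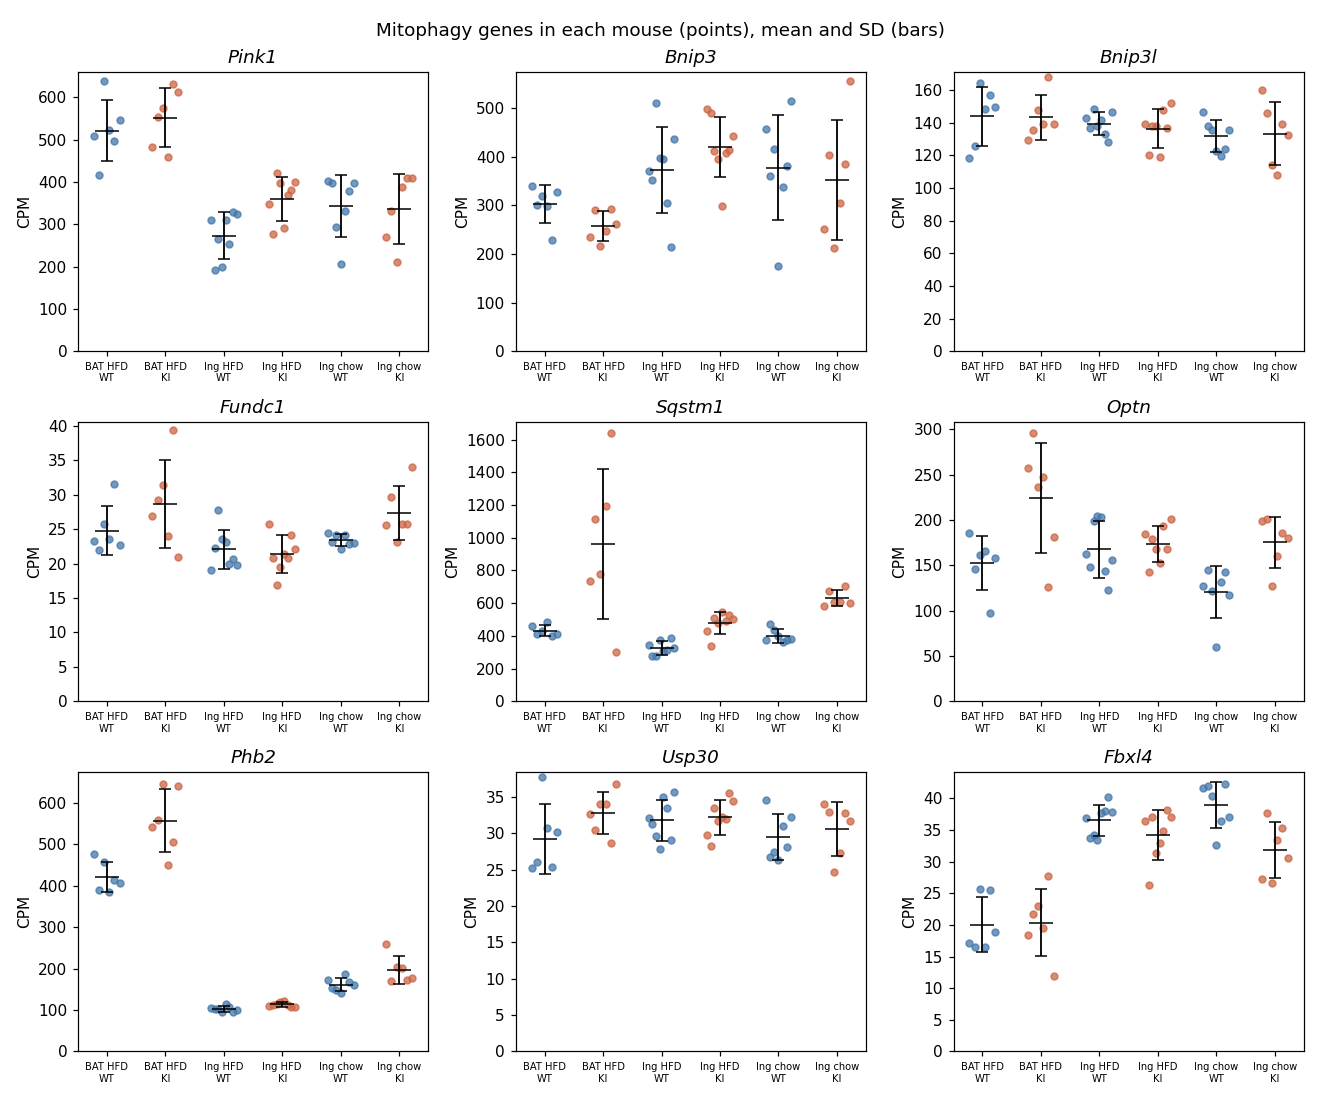
CPM (vertical axis, from 0) of the 9 members in each of 41 mice, by tissue, diet and genotype, with bars at the mean and SD of each group. The KI points of Sqstm1 lie above the WT points on chow (580.4 to 705.5 against 360.4 to 474.2 CPM), and 1 BAT KI mouse falls to 303.5 CPM.

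Several members share exons with another gene, and the strand setting used in counting was not given in the sources used here. Sqstm1 shares 580 exon bases with Mrnip on the opposite strand, but Mrnip counts were 0.158 to 3.71% of the Sqstm1 counts in a mouse, with a median of 1.13%. Bnip3 shares 504 exon bases with the antisense transcript Gm45507, whose counts were 72.3 to 92.3% of those of Bnip3, and Phb2 shares 141 with the antisense Gm15884, at 37.8 to 51.7% of Phb2. Reads of Bnip3 and Phb2 and of their antisense partners therefore cannot be told apart if strand was not used. Optn shares 73 exon bases with 4930551O13Rik and Usp30 shares 161 with Svop and 329 with Alkbh2, all on the opposite strand. Pink1 shares 110 exon bases with Gm27646 and 69 with Mir7019 on its own strand, and both had 0 CPM in every group. No exon bases shared with another gene were found for Bnip3l, Fundc1 or Fbxl4.

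To compare members with one another, CPM was divided by the gene's length in kilobases. In BAT of WT mice Pink1 led with 194.9 ± 27.0 CPM per kb (SD, n = 6), ahead of Bnip3 with 133.5, Sqstm1 with 128.7 and Phb2 with 113.3 CPM per kb. The next levels were much lower, with Optn at 40.6, Bnip3l at 37.3, Fundc1 at 10.5, Fbxl4 at 5.28 and Usp30 at 4.82 CPM per kb. In BAT of KI mice the order began with Sqstm1 at 286.2 ± 137 CPM per kb (SD, n = 6), before Pink1 at 206.4 CPM per kb, a pair whose SDs overlapped. In inguinal WAT Bnip3 had the highest mean in WT mice, 164.5 ± 39.0 CPM per kb (SD, n = 8) on HFD and 166.6 on chow, and in KI mice on HFD, 185.3. Among chow KI mice Sqstm1 at 187.4 CPM per kb stood before Bnip3 at 155.3, again with overlapping SDs. Fundc1, Fbxl4 and Usp30 had the 3 lowest means in these groups.

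**Figure D4:**
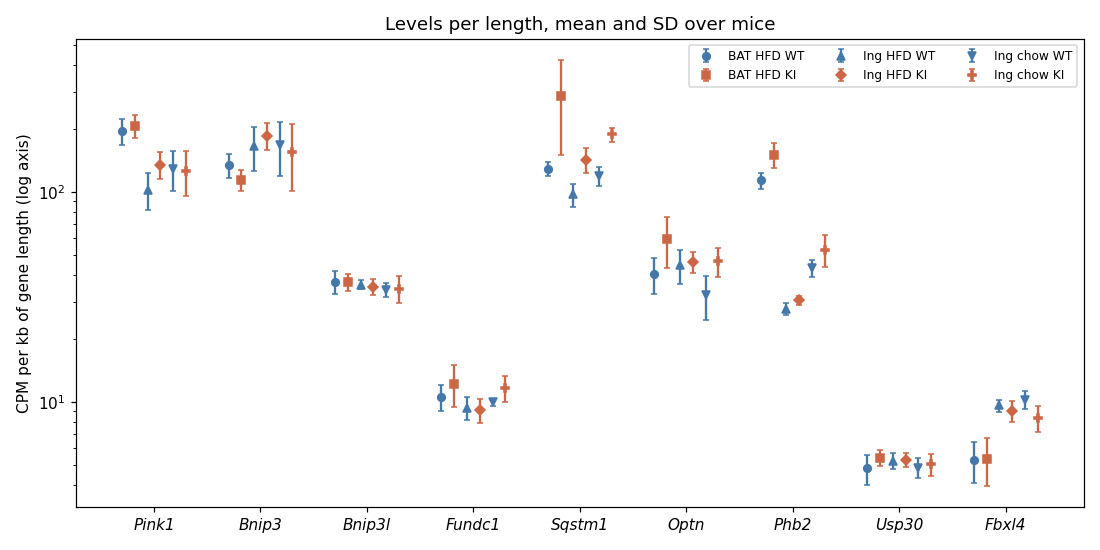
Mean level of each member in CPM per kb of gene length (log scale) in the 6 groups, with the SD over mice. Pink1, Bnip3, Sqstm1 and, in BAT, Phb2 lie at 97.1 CPM per kb or higher, and Fbxl4 and Usp30 lie lowest in BAT, at 4.82 to 5.40 CPM per kb.

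The members differed widely in how far their levels moved across the 6 groups. The ratio of the highest to the lowest group mean was 5.41 for Phb2, 2.95 for Sqstm1, 2.02 for Pink1, 1.94 for Fbxl4, 1.86 for Optn and 1.63 for Bnip3. It was 1.34 for Fundc1, 1.12 for Usp30 and 1.09 for Bnip3l. Within groups, the member pairs that varied most alike over 41 mice were Sqstm1 and Fbxl4 (Pearson's r 0.65), Fundc1 and Fbxl4 (0.56), Bnip3 and Optn (0.54) and Bnip3l and Usp30 (0.50), values that share libraries and depth and are given as a description.

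BAT and inguinal WAT on HFD were compared within each genotype, as were HFD and chow within inguinal WAT. These comparisons use the same groups of mice as the comparisons of genotype, the tissues and diets were held in separate tables, and whether a tissue or diet difference includes a difference between sequencing runs cannot be told apart. Whether BAT and inguinal WAT came from the same mice was not given in the sources used here, and they were treated as separate. In WT mice 3 of 9 members differed between tissues, beside 55.9% of 17214 genes tested. Phb2 was 421.2 ± 37.2 CPM (SD, n = 6) in BAT and 103 ± 6.74 CPM (SD, n = 8) in inguinal WAT, a log2 difference of 2.03 (SE 0.0806, edgeR adjusted p = 1.53e-19). Pink1 was higher in BAT by 0.93 (SE 0.125, edgeR adjusted p = 1.43e-07). Fbxl4 fell by 0.87 on the log2 scale in BAT (SE 0.131, edgeR adjusted p = 9.77e-07). For all 3 genes, and for Sqstm1, the WT mice of the tissues did not overlap, 4 of 9 members beside 39.3% of all genes tested.

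In KI mice 6 of 9 members differed between tissues, beside 59.1% of genes. Phb2 (log2 2.28), Sqstm1 (1.00), Pink1 (0.60) and Fundc1 (0.41) were higher in BAT (edgeR adjusted p = 9.65e-21, 5.24e-05, 9.77e-05 and 0.00298). Fbxl4 (-0.76) and Bnip3 (-0.72) were lower (edgeR adjusted p = 6.62e-06 and 4.21e-05). The tissues did not overlap for 3 of 9 members, Pink1, Phb2 and Bnip3, beside 40.6% of genes. Optn had 0.36 and was not called (edgeR adjusted p = 0.0357), and Bnip3l and Usp30 had 0.06 and 0.01. Without BAT KI mouse 5 Fundc1 was no longer called (0.29, edgeR adjusted p = 0.0223) and Optn was (0.47, edgeR adjusted p = 0.00302). The Sqstm1 difference between tissues was 0.40 in WT mice, where it was not called (edgeR adjusted p = 0.0701), although all 6 BAT values lay above all inguinal ones; without BAT KI mouse 6, which enters the estimate of spread, it was called at the same size (0.40, edgeR adjusted p = 0.00981). Bnip3 in WT mice was -0.30 and passed the threshold without HFD WT mouse 7 (-0.39, edgeR adjusted p = 0.00563).

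Between diets, 2 of 9 members differed in WT mice, beside 28.2% of 17400 genes tested. Phb2 was 161.2 ± 15.6 CPM (SD, n = 7) on chow and was lower on HFD by a log2 difference of -0.64 (SE 0.0763, edgeR adjusted p = 1.25e-07), with all 8 HFD mice below all chow mice. It was the only 1 of 9 members with no overlap between diets in WT mice, beside 12.2% of genes. Optn was higher on HFD by 0.48 (SE 0.142, edgeR adjusted p = 0.00767), with 6 of 8 HFD mice above all chow mice. The Optn call was lost in 14 of the 29 fits that left out 1 mouse, in which it was 0.41 to 0.50 (edgeR adjusted p from 0.0102 to 0.0243); these left out chow WT mouse 1, 3, 5 or 7, HFD WT mouse 1, 3, 4, 5 or 8, or HFD KI mouse 1, 3, 5, 6 or 7. In KI mice 3 of 9 differed, beside 30.6% of genes, and all 3 were lower on HFD. They were Phb2 (-0.77, SE 0.0791), Sqstm1 (-0.36, SE 0.102) and Fundc1 (-0.32, SE 0.0927), with edgeR adjusted p = 1.14e-08, 0.00477 and 0.0065. For Phb2 and Sqstm1 the KI mice of the 2 diets did not overlap, 2 of 9 members beside 17% of genes. The Sqstm1 call was lost without chow KI mouse 2 or 5 (-0.34 and -0.33), and the Fundc1 call without chow KI mouse 2 or 6 or HFD KI mouse 4 (-0.29, -0.24 and -0.31). In WT mice Sqstm1 had -0.29 (edgeR adjusted p = 0.0187) and was called in 6 of the 29 fits without 1 mouse (-0.36 to -0.31), those without HFD KI mouse 1, 2, 5 or 6 or HFD WT mouse 4 or 7.

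The difference of the KI effect itself was tested with an interaction term. Between diets 0 of 9 members were called by edgeR, with 1 at an unadjusted p below 0.05 and 0 called by DESeq2, beside 0.632% of genes tested. The Sqstm1 effect on HFD minus that on chow was -0.07 (95% interval -0.35 to 0.21, edgeR adjusted p = 0.847). For Pink1 it was 0.46 (SE 0.225) and for Optn -0.46 (SE 0.204), with edgeR adjusted p = 0.298 and 0.242. Between tissues 0 of 9 members were called by edgeR, with 4 at an unadjusted p below 0.05 and 0 called by DESeq2, beside 2.82% of genes. The Sqstm1 effect in BAT minus that in inguinal WAT was 0.59 (SE 0.28, edgeR adjusted p = 0.207). It was 0.78 (SE 0.196, edgeR adjusted p = 0.0133) without the BAT KI mouse 6, which was singled out by its own Sqstm1 level. An effect called in one tissue or diet and not in another is therefore not shown to differ for any member.

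Other genes of mitophagy and autophagy were read from 4 lists. Of 22 further mitophagy genes tested, 2 were higher and 1 lower with the KI genotype in inguinal WAT on HFD, 1 was higher and 1 lower on chow, and 0 were called in BAT by edgeR. The calls on HFD, 3 of 22, lie beside 11.5% of all genes, and those on chow, 2 of 22, beside 3.23%. Usp35, a deubiquitinase gene, was lower in both inguinal comparisons, by log2 values of -0.48 and -0.93 (edgeR adjusted p = 0.00152 and 8.80e-04). Vdac1, which encodes the main channel of the outer membrane, was higher in both, by 0.31 and 0.59 (edgeR adjusted p = 0.00612 and 0.00804), and Nipsnap1, a mitochondrial matrix protein gene, was higher on HFD by 0.51 (edgeR adjusted p = 0.00158). Their medians were 0.06, 0.09 and 0.14 in the 3 comparisons, and without the mice high in muscle or lymphocyte markers Usp35 on chow was the only one of these calls kept.

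Of 11 genes for the import and cleavage of PINK1, Timm50, a subunit of the inner membrane translocase, was higher with the KI genotype in inguinal WAT on HFD (0.39, edgeR adjusted p = 0.00231), 0 were called on chow, and Tomm40, the outer membrane channel, was higher in BAT (0.52, edgeR adjusted p = 0.00804). The Tomm40 call was lost without the BAT KI mouse 6, and both calls were lost without the mice high in muscle or lymphocyte markers. By tissue this list moved as a whole: all 11 genes were higher in BAT in WT and in KI mice, beside 26.9% and 28.4% of all genes tested, with median log2 differences of 1.52 and 1.72 where all genes had -0.09 and -0.12. Timm50 had 2.44 and 2.54, Afg3l2, a protease of the inner membrane, 2.25 and 2.41, and Tomm7, which holds PINK1 at the outer membrane, 2.02 and 2.32. By diet, 6 of 11 were lower on HFD in WT and 7 of 11 in KI mice, beside 15.2% and 15.4% of all genes. The log2 differences of Tomm7 were -1.10 and -1.29 and those of Timm50 -1.10 and -0.92.

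Of 30 genes of autophagosome formation, 2 were higher with the KI genotype for inguinal HFD samples, 1 for chow and 1 for BAT, and none of the 30 was called lower by edgeR in these comparisons. Of all genes 6.21%, 1.96% and 1.36% were called higher, so nothing is read from these counts about the list. Gabarapl1, which encodes a protein of the autophagosome membrane that adaptors bind, was higher in inguinal WAT on HFD (0.50, edgeR adjusted p = 5.39e-05) and in BAT (0.91, edgeR adjusted p = 0.00441), and both calls were kept without the mice high in muscle or lymphocyte markers. Atg7, the enzyme that starts the conjugation of such proteins, was higher on HFD (0.37, edgeR adjusted p = 0.0023), and Atg101, of the initiating kinase complex, was higher on chow (0.54, edgeR adjusted p = 0.00837), a call that was lost without the mice high in muscle or lymphocyte markers.

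Of 20 lysosomal genes few were called in any table. In inguinal WAT on HFD 3 were lower in KI mice and 0 higher, namely the protease genes Ctsd (-0.65) and Ctsb (-0.37) and the cholesterol carrier gene Npc2 (-0.57), with edgeR adjusted p = 0.00342, 0.00641 and 3.20e-05. On chow 3 were higher and 0 lower, and in BAT 1 was higher and 0 lower. The shares of all genes called higher and lower were 6.21% and 5.24% on HFD, 1.96% and 1.27% on chow and 1.36% and 0.475% in BAT. Atp6v1h, a subunit of the proton pump that acidifies lysosomes, and Neu1, a sialidase gene, were higher on chow by 0.53 and 0.47 (edgeR adjusted p = 0.00372 and 0.00293), and both were also called without the chow KI mouse 4 and without the mice high in muscle or lymphocyte markers. Npc1, a membrane cholesterol transporter gene, was higher on chow (0.49, edgeR adjusted p = 0.00993) and in BAT (0.66, edgeR adjusted p = 0.0017), and its chow call was lost without the chow KI mouse 4. The difference of the KI effect passed the test for Ctsd and Npc1 between diets (-1.30 and -0.53, edgeR adjusted p = 0.00463 and 0.00798) and also between tissues (1.19 and 0.75, edgeR adjusted p = 0.00149 and 5.86e-05). Ctsd, Ctsb and Npc2 are also abundant in macrophages, whose summed markers had medians of 964.6 CPM in WT mice on HFD and 648.7 CPM in their KI counterparts, and the part of macrophages in these differences was not tested. Without the mice high in muscle or lymphocyte markers, Npc2 was the lysosomal gene still called on HFD.

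**Figure D5:**
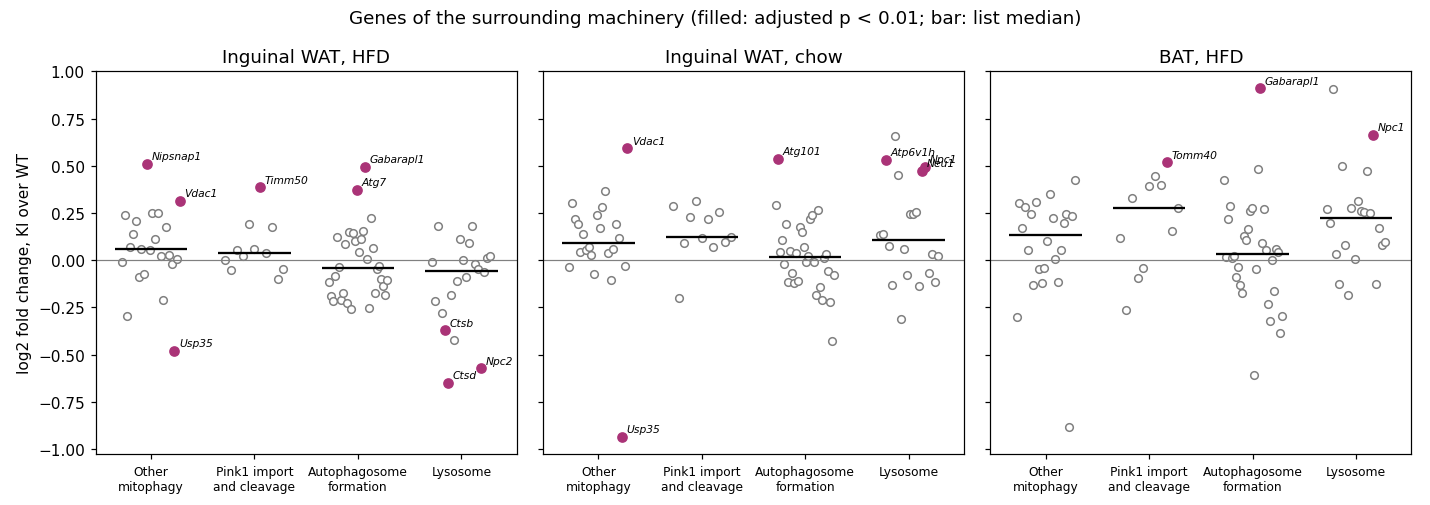
Log2 fold change of KI against WT (vertical axis) for each tested gene of the 4 lists in the 3 comparisons, with called genes (edgeR adjusted p below 0.01) filled and named and a bar at each list's median. Most genes lie near 0, the lysosomal calls lie below 0 in inguinal WAT on HFD (Ctsd -0.65) and above 0 on chow and in BAT (Npc1 0.49 and 0.66).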

How the data were processed

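RNA was extracted from inguinal WAT and BAT, sequenced as paired ends after TruSeq preparation, and the values used are the counts per gene that the authors deposited, unnormalised, in 3 tables with 41 mouse columns in all from 57 libraries. Per the labels, the submitters' processing notes name cutadapt, STAR, SAMtools, featureCounts and GRCm38, and their versions and the strand setting are not given in the sources used here. The columns of inguinal WAT on HFD hold 1 value per mouse, where 2 technical libraries had been made. How the 2 libraries entered that value is not given in the sources used here, and each column was taken as the mouse. Mice are separate samples per the labels. The members and the gene lists were chosen with earlier results of these data known.

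Of 54838 entries in each table, 1884 without length or counts were dropped, and 1 entry was kept of each of 99 symbols listed in 200 entries with the same counts, leaving 52853 genes. No value column was unused. Counts were tested with edgeR 4.0.16 in R 4.3.3 (TMM, filterByExpr, robust quasi-likelihood fit), 1 fit for each comparison of genotype and 1 for each pair of tables, with Benjamini-Hochberg adjustment over all genes tested and a threshold of 0.01. SEs were the log2 fold change divided by the square root of F, with 95% intervals from them by the normal quantile. CPM used 1 TMM scale over the 41 mice, and log2 CPM a prior count of 2. Each mouse's total lay between 8042591 and 25680411 counts. Coordinates and overlaps are from the GENCODE vM21 annotation of GRCm38, and promoter windows from RefSeq (GRCm38.p6), in which 8 of 9 members matched. The fits were tested on simulated data with known changes.

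Named genes were the 9 members, Mfn2, up to 3 called genes of each list with the largest change in a comparison, and, for a called member, the 3 genes varying most like it within groups. Of 24 further mitophagy genes 23 matched by symbol, and 1 gene of the lysosome list is not reported here. Alternatives were DESeq2 1.42.0, RLE size factors, other filters, leaving out the 37 mitochondrially encoded genes, 1 fit of all 6 groups, a threshold of 0.05, the mouse number as a block and each mouse left out. An alternative chosen after seeing the data left out together the mice with over 1000 CPM of skeletal muscle or over 100 CPM of lymphocyte markers, sums taken as CPM of the raw library total, before TMM scaling. In inguinal WAT on HFD these were KI mice 2, 3 and 5 and WT mice 1, 2 and 6. On chow they were KI mice 1, 3 and 4 and WT mouse 4, and in BAT WT mice 1 and 2.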

Additional observations from a re-analysis of the deposited data

Results flagged for a closer look

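Of 54 combinations of member and group examined for a single mouse far from the rest, 2 stood out, where chance flags about 1 in 20. Bnip3 in BAT WT mouse 5 was 227.7 CPM, where the next mouse had 299.2 and the highest 339.6 CPM, so that the gap took 0.639 of the range of the group. Without that mouse the BAT difference of Bnip3 was -0.34 (edgeR adjusted p = 0.0787), against -0.28 with it. Optn in chow WT mouse 4 was 59.86 CPM, where the next mouse had 116.9 and the highest 144.5 CPM, a gap of 0.674 of the range. That mouse also had the most macrophage (2212 CPM) and epithelial (141.3 CPM) markers of its group, and without it the chow difference of Optn was 0.43 (edgeR adjusted p = 0.0244). The cause of either value was not tested.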

How the results depend on the processing

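Of 675 values under other settings 632 kept their direction and their side of the threshold, as did 1814 of 1908 with 1 mouse left out. With a threshold of 0.05 the genes called for inguinal HFD, inguinal chow and BAT samples were 3448, 1252 and 952, and the members called 2, 1 and 1; the interactions by diet and tissue called 500 and 1280 genes. With 1 fit of all 6 groups the genes called were 1242, 1088 and 834 and the members 0, 0 and 2, and 1 member was called between diets in WT mice. DESeq2 called 1107 genes on chow, 717 in BAT with 1 member, 409 for the interaction by diet and 848 for that by tissue. A minimum of 10 counts gave 168 genes for the interaction by diet, and no filter gave 1 member between diets in KI mice. Leaving out together the mice high in muscle or lymphocyte markers, an alternative chosen after seeing the data, gave 1018 genes in inguinal WAT on HFD and 2 members on chow (Sqstm1 and Optn), and in BAT Sqstm1 was 1.14 (edgeR adjusted p = 0.0842).

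Mice of the same number did not deviate together in every pair (r from -0.26 to 0.69 on HFD, -0.22 to 0.19 on chow and -0.15 to 0.31 in BAT), so the numbers were not taken as pairs, and every mouse correlated best with its own number in no comparison. With the replicate block 102 genes and 0 members were called on chow (Sqstm1 0.63, edgeR adjusted p = 0.022), 15 and 180 genes for the interactions by diet and tissue, and 1 member between diets in WT mice.

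With each mouse left out the genes called ranged from 1460 to 2338 in inguinal WAT on HFD, 288 to 497 on chow, 134 to 313 in BAT, 69 to 269 and 362 to 570 for the interactions by diet and tissue, 4271 to 5232 and 4484 to 5526 between diets in WT and KI mice, and 9084 to 9901 and 9658 to 10260 between tissues. Members called ranged from 0 to 1 in BAT, 1 to 3 between diets in both genotypes and 3 to 4 between tissues in WT mice. Why they varied was not tested.

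With each mouse left out, some small differences took either sign. In the comparisons of genotype these were, for inguinal WAT on HFD, Bnip3l (-0.049 to 7.58e-05), Fundc1 (-0.073 to 0.014) and Usp30 (-0.0094 to 0.05049), for chow, Pink1 (-0.12 to 0.063) and Bnip3l (-0.034 to 0.067), and for BAT, Pink1 (-0.0070 to 0.12), Bnip3l (-0.080 to 0.0069) and Fbxl4 (-0.10 to 0.12). In the interactions they were, by diet, Bnip3l (-0.074 to 0.035) and Usp30 (-0.0698 to 0.0253), and by tissue, Bnip3l (-0.037 to 0.056) and Fbxl4 (-0.0011 to 0.22). Between diets they were Bnip3 in WT (-0.14 to 0.074) and Optn in KI mice (-0.077 to 0.063), and between tissues Usp30 in KI mice (-0.023 to 0.045).

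Differences near 0 also changed sign under some settings. These were Bnip3l in inguinal WAT on HFD (0.026 without the mice high in markers) and on chow (-0.0019 without mitochondrially encoded genes), Pink1 and Bnip3 on chow (0.059 and 0.12) and Pink1 in BAT (-0.021) without the mice high in markers, Fbxl4 in BAT (0.024 with 1 fit), Optn between diets in KI mice (-0.0043 with DESeq2, -0.00496 with RLE size factors, -0.021 without mitochondrially encoded genes, -0.015 with 1 fit and -0.023 with the block) and Bnip3 in WT mice (0.016 with a minimum of 10). Between tissues they were Usp30 in KI mice (-0.0036 with DESeq2, -0.0024 with RLE, -0.055 with no filter, -0.098 with a minimum of 10 and -0.033 without mitochondrially encoded genes) and Bnip3l in WT (-0.012 with no filter and -0.072 with a minimum of 10) and KI mice (-0.0085 and -0.054). The table of inguinal WAT on HFD was the deepest, and Fbxl4, with 74 counts in 1 BAT mouse, had an SE of 0.176 in BAT against 0.0698 there. Its coefficient of variation was 22% in WT and 26% in KI mice in BAT (n = 6 each), against 6.7% and 12% there (n = 8 each). The part of depth in the SE was not tested.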

Other observations

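Fbxl4 and Sqstm1 varied alike within groups although their genotype differences had opposite signs on chow. Pearson's r of their log2 CPM, less the mean of each group, was 0.65 over 41 mice. The value includes BAT KI mouse 6, lowest of its group in both genes, and BAT KI mouse 5, highest in both. It was not computed without these mice.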
